A study of Mus musculus with 12 samples.

Results

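The transcripts of 9 genes that build the tight and adherens junctions of the blastocyst were measured: the claudins Cldn4, Cldn6, and Cldn7, occludin (Ocln), the junctional adhesion molecule JAM-A (F11r), the plaque proteins ZO-1 (Tjp1) and cingulin (Cgn), E-cadherin (Cdh1), and β-catenin (Ctnnb1). They were taken by gene name from the deposited table of 34245 genes, in which all 9 were found. The mRNA-Seq dataset held 12 libraries, each from a pool of 30 whole blastocysts, so the outer cells were not separated from the inner cell mass. All embryos came from F1 hybrid (C57Bl6 x CBA/W) mice, were collected at the 2-cell stage from superovulated females, and grew in KSOM medium with amino acids until E3.5. They were then moved into the same medium with either DMSO, the solvent alone (control), or 20 µM SB220025, an inhibitor of the p38 mitogen-activated protein kinases (p38-MAPKi), dissolved in DMSO. Pools were taken 4, 7, or 10 h after E3.5, with 2 libraries for each of the 6 groups, written here as 4 h, 7 h, and 10 h. There were no untreated pools without solvent and no second inhibitor, so an effect of SB220025 on other proteins and one through p38-MAPK cannot be told apart here.

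The trophectoderm is the outer epithelium of the blastocyst. Its adherens junctions hold neighbouring cells together through E-cadherin, whose cytoplasmic tail binds β-catenin, and β-catenin in turn binds α-catenin and the actin cytoskeleton. Its tight junctions seal the space between the cells by strands of claudins with occludin and JAM-A beside them, anchored on the inside by a plaque of ZO proteins and cingulin, and this seal allows fluid to be held in the blastocyst cavity. E-cadherin and β-catenin are also used by the cells inside the blastocyst.

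For the transcription start sites, RefSeq promoter windows (build GRCm38.p6, 250 bases before to 50 bases after each start) were found for 8 of the 9 genes, in 11 windows, and Cdh1 had none. Printed here are the windows of Tjp1 and Cgn, the genes that passed the test between p38-MAPKi and control, of Cldn4, which had the highest level, and of Cldn7, which stood above its controls at 4 h and 7 h. Tjp1 lies on the minus strand at chr7:65371195-65371494, a start inside the wider extent of the annotated gene. Cgn lies on the minus strand at chr3:94786433-94786732, and Cldn4 on the minus strand at chr5:134946885-134947184. The window shown for Cldn7 is the downstream one of 2 and lies on the plus strand at chr11:69965171-69965470, also inside the annotated gene. Each is written 5′ to 3′, and capitals mark 3 motifs on either strand: the cyclic AMP response element TGACGTCA, the AP-1 site TGANTCA, and the E-box CAGGTG, which is known to be bound by the Snail and ZEB repressors of epithelial genes.
Tjp1: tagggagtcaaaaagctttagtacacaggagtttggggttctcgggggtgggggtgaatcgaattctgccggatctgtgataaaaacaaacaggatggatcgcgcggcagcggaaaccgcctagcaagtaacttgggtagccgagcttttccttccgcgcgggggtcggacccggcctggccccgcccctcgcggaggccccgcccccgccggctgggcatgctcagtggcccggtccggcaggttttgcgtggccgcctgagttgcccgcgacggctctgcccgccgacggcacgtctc
Cgn: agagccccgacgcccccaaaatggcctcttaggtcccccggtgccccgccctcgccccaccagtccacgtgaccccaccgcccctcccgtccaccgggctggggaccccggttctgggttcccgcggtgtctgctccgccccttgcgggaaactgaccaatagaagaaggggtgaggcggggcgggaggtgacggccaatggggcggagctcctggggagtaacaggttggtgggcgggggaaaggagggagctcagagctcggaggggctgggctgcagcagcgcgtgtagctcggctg
Cldn4: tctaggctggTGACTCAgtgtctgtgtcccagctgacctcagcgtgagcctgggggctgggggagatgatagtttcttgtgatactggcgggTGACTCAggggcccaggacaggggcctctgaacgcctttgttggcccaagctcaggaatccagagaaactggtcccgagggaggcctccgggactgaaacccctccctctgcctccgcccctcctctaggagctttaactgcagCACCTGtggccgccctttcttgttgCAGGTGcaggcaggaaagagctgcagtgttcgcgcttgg
Cldn7: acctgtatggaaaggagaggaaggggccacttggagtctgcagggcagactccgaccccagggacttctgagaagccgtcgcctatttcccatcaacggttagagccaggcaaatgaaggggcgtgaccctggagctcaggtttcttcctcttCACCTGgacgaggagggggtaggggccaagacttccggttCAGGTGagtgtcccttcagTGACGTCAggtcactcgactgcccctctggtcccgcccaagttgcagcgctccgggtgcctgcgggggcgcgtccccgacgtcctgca

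The response element and the AP-1 site were chosen after the sequences had been seen. Among the 32851 windows of all genes, 1.79% held TGACGTCA, 7.81% TGANTCA, and 20.2% CAGGTG. TGACGTCA was in the window of Cldn6 and in the one printed for Cldn7, and TGANTCA was in those of Cldn4, which held 2 copies, and F11r. CAGGTG was in windows of all 3 claudins, Ocln, and F11r, and in none of Tjp1, Cgn, or Ctnnb1. A search for the TEAD site GGAATG (14.7% of all windows) found it in Cldn6 and in the upstream window of Cldn7, while the GATA site AGATAA (11.2%) was in no window of these genes. The AP-2 site GCCNNNGGC (16.6%) was in windows of Tjp1, Ocln, F11r, and Ctnnb1, and the window of Cgn held none of the 6 motifs. No match of one motif overlapped a match of another, and a match describes the letters of the window only.

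On GRCm38, Tjp1 was annotated at chr7:65296165-65527781, Cgn at chr3:94760069-94786492, and Ocln at chr13:100496507-100552718, all on the minus strand, as was Cldn4 at chr5:134945119-134946934. On the plus strand were F11r at chr1:171437535-171464603, Cdh1 at chr8:106603351-106670246, Ctnnb1 at chr9:120929216-120960507, Cldn7 at chr11:69964779-69967885, and Cldn6 at chr17:23679365-23682446. The lengths that enter the deposited values, called transcript lengths here, are those of all annotated exons of a gene merged. A single transcript can be shorter. The shortest were 1506 bases for Cldn6 (found by trying lengths), 1816 for Cldn4, and 1948 for Cldn7. Then came 2663 for F11r, 4222 for Ocln, 4574 for Cdh1, and 5192 for Ctnnb1, and last 6021 for Cgn and 7811 for Tjp1. The claudins were thus the shortest of the group and the plaque genes the longest. Each gene was covered by 296 (Ocln) to 31938 (Cldn4) reads in a library. Ulk4, on the opposite strand at the Ctnnb1 locus, reached at most 0.710 RPKM, and the highest of the other overlapping genes listed, Gm44794 within Tjp1, reached at most 0.427 RPKM.

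The values are RPKM, the reads of a gene divided by its transcript length and by the library's total, so levels can be compared between genes, while a change in the total mRNA of an embryo cannot be read from them. The depth of the libraries was 11242313 to 24457312 reads. The shallowest was the p38-MAPKi library of 7 h numbered replicate 1, in which 14037 genes had a read, against 16379 to 17681 in the others. Of 15 trophectoderm markers, 14 were tested at each time point, among them the keratins Krt18 (1141 RPKM as the mean of the controls) and Krt8 (588 RPKM). All 9 cumulus and granulosa markers stayed below the filter, with a summed level of 0.215 to 1.26 RPKM, and of 7 oviduct and 7 blood markers 1 each was tested, with sums of 1.69 to 4.60 and 2.19 to 8.02 RPKM.

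In the 6 control libraries the levels reached from the middle of the range of the tested genes, where Ocln lay above 53.8% of them by its mean level, to near its top. Cldn4 was the most abundant by far, with a median of 660.1 RPKM (556 to 782), above 99.8% of the tested genes. Cldn7 followed at 236 RPKM (217 to 273) and Cdh1 at 172 RPKM (156 to 202). These 3 genes did not overlap one another in any pair of control libraries. Cldn6 at 108 RPKM (91.6 to 151), Ctnnb1 at 107 RPKM (100.5 to 118), and F11r at 96.6 RPKM (80.8 to 109) came next, and their ranges overlapped, so no order among them can be given. The plaque genes were lower, Tjp1 at 23.4 RPKM (20.2 to 26.9) and Cgn at 20.0 RPKM (15.6 to 22.1), again with overlapping ranges. Ocln was the lowest at 9.32 RPKM (7.26 to 10.4), below every library of the others.

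**Figure D1:**
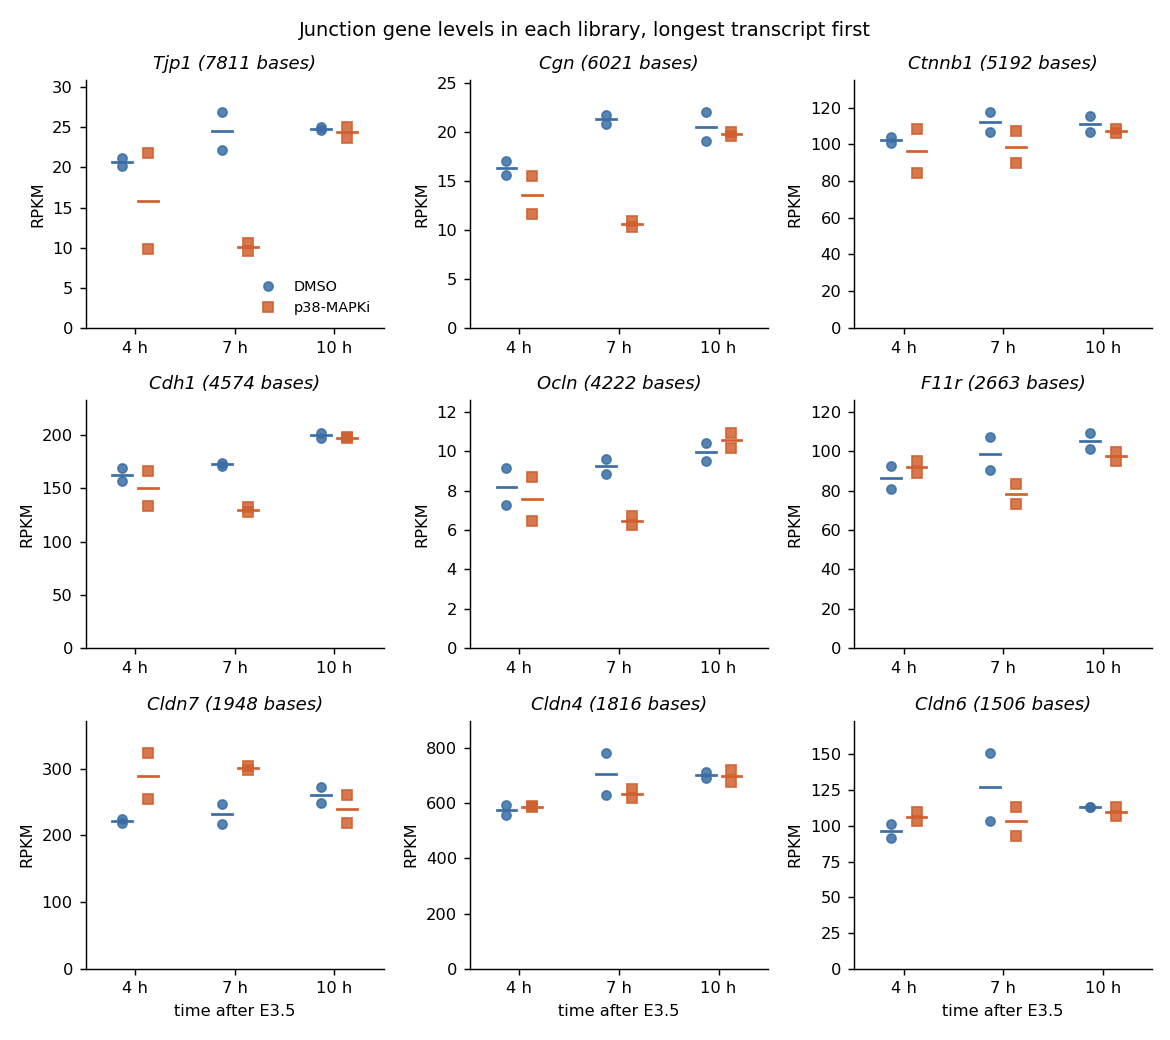
RPKM (vertical axes, from 0) of each junction gene in the 12 libraries at 4, 7, and 10 h after E3.5, as circles for control (DMSO) and squares for p38-MAPKi, with a bar at the mean of each pair; the panels run from the longest transcript to the shortest. At 7 h both p38-MAPKi libraries of Tjp1 (9.59 and 10.6 RPKM) and Cgn (10.3 and 10.97 RPKM) lie far below their controls, and at 10 h the pairs lie close together.

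At 7 h, p38-MAPKi blastocysts had less transcript of both plaque genes, and at 10 h no difference was detected in any of the 9. In limma on the log2 values of the 4 libraries of 7 h, 2 of the 9 junction genes passed the test (Benjamini-Hochberg adjusted p under 0.05), both lower, against 2.13% of the 10940 genes tested (1.2% lower). The median log2 difference of the 9 genes was -0.33, and that of all tested genes was -0.14. At this time 8 of the 9 lay lower and 1, Cldn7, lay higher than control, and 4 of them, all lower, had an unadjusted p under 0.05, against 28.4% of all genes. Both p38-MAPKi libraries lay below both controls for 5 of the 9 genes (Tjp1, Cgn, Ocln, Cdh1, and F11r), as they did for 38.7% of all tested genes, and above them for Cldn7, as for 23% of all. In these whole-blastocyst pools, fewer cells of a type and less RNA per cell cannot be told apart.

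Tjp1 encodes ZO-1, the scaffold that ties claudins and occludin to actin. At 7 h its level was 22.1 and 26.9 RPKM in the control libraries and 9.59 and 10.6 RPKM in the p38-MAPKi libraries. The groups were separated by more than the distance between the controls. Tjp1 fell by 58.8%, a log2 change of -1.28 ± 0.19 (SE, n = 2 against 2, adjusted p = 0.0456). At 4 h the controls had 20.2 and 21.2 RPKM and the p38-MAPKi libraries 21.8 and 9.89 RPKM. One p38-MAPKi library thus stood above its controls and the other far below. The difference was -0.49 ± 0.21 (adjusted p = 0.368), with an SE taken from the trend over all genes, not from the scatter of Tjp1. Without replicate 2 of p38-MAPKi it was 0.078, and without replicate 1 it was -1.06. At 10 h the values were 24.6 and 25.1 RPKM in control and 25.1 and 23.7 RPKM in p38-MAPKi, a difference of -0.028 ± 0.071 (adjusted p = 0.861).

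Cgn encodes cingulin, a plaque protein that binds ZO-1 and actin. Its level at 7 h was 21.8 and 20.9 RPKM in control and 10.3 and 10.97 RPKM in p38-MAPKi, and each pair lay within a narrow range. Cgn fell by 50.1%, a log2 change of -1.002 ± 0.18 (adjusted p = 0.0461). At 4 h it had 15.6 and 17.1 RPKM in control and 15.5 and 11.6 RPKM in p38-MAPKi. The first of these p38-MAPKi libraries lay just under the lower control. The difference of -0.28 ± 0.21 did not pass the test (adjusted p = 0.728). At 10 h the p38-MAPKi libraries, with 20.0 and 19.6 RPKM, lay between the controls, with 19.1 and 22.1 RPKM, and the difference was -0.053 ± 0.090 (adjusted p = 0.784).

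Both calls of 7 h lay close to the threshold. Without control replicate 1 of that time Tjp1 kept its call (adjusted p = 0.0341) and Cgn did not (0.0799), and without control replicate 2 neither did (0.281 and 0.311). Without the shallow replicate 1 of p38-MAPKi both were called (0.00609 and 0.0175), as they were without replicate 2 (0.000592 and 0.00294), where 5.42% and 27.4% of all genes were called. Neither was called when each library was centred on its median (0.0694 for both), after quantile normalization (0.0567 for both), or by limma without the variance trend (0.158 for both). In these settings 0, 12 (0.11%), and 0 of all 10940 tested genes were called. Both were called with voom, the form of limma for counts, on whole reads recovered from the deposited values (15.8% of all genes called). The same held with a replicate block (18.5%) and in a single fit to 12 libraries (21.7%). It also held without a filter (3.61%), with at least 10 RPKM (18.6%), and with each pseudocount (3.18% to 5.91%).

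The change of the p38-MAPKi effect between 7 h and 10 h was tested by itself, as an interaction over 8 libraries. None of the 9 genes passed, against 0.00877% of 11400 tested genes, and 5 of the 9 had an unadjusted p under 0.05, against 26.3% of all. With voom, Tjp1 and Cgn passed, as did 7.83% of all genes. The effect on Tjp1 was 1.25 ± 0.18 higher on the log2 scale at 10 h than at 7 h, and that on Cgn 0.95 ± 0.16 higher (adjusted p = 0.0646 for both). The difference for Ocln was 0.60 ± 0.18 (adjusted p = 0.1004), and that for Cldn7, the only negative one, -0.51 ± 0.18 (adjusted p = 0.127). Between 4 h and 7 h no junction gene passed in limma or voom, against 0.00884% of genes in limma and 0 in voom. In limma 1 of the 9 had an unadjusted p under 0.05, against 6.83% of all. Between 4 h and 10 h none of the 9 and 0 of all 11288 genes passed in limma, with 1 of the 9 and 1113 genes (9.86%) at an unadjusted p under 0.05, and 0 with voom.

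Among the transmembrane proteins, the claudins form the strands of the seal, and the 3 measured did not move alike. Cldn4, the most abundant, had 782 and 630.2 RPKM in control and 649 and 618 RPKM in p38-MAPKi at 7 h, and the groups overlapped (-0.15 ± 0.20, adjusted p = 0.640). Its values at 4 h were 556 and 592 RPKM in control and 584 and 589.6 RPKM in p38-MAPKi. At 10 h they were 690.0 and 713 RPKM in control and 677 and 719 RPKM in p38-MAPKi. The fitted differences at these times were 0.033 ± 0.22 and -0.0080 ± 0.065.

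Cldn7 was the only one of the 9 whose p38-MAPKi libraries lay above both controls at 2 time points. At 4 h it had 219 and 225 RPKM in control and 254 and 324 RPKM in p38-MAPKi. At 7 h it had 248 and 217 RPKM in control and 298 and 304 RPKM in p38-MAPKi. Neither difference passed the test: 0.37 ± 0.21 (adjusted p = 0.605) and 0.38 ± 0.18 (adjusted p = 0.199). With quantile normalization they were 0.16 and 0.0030, and with the trend on transcript length removed 0.19 and 0.27. At 4 h the difference was 0.54 without p38-MAPKi replicate 1 and 0.19 without replicate 2, and at 7 h it was 0.57 with each library centred on its median. At 10 h the groups overlapped, with 249 and 273 RPKM in control and 218 and 259.9 RPKM in p38-MAPKi (-0.13 ± 0.097).

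Cldn6, the shortest transcript, had 151 and 104 RPKM in control and 92.7 and 113 RPKM in p38-MAPKi at 7 h, where its controls differed more from each other than the groups did (-0.29 ± 0.22, adjusted p = 0.405). At 4 h it had 91.6 and 101 RPKM in control and 109 and 103 RPKM in p38-MAPKi, without overlap (0.14 ± 0.20, adjusted p = 0.862). At 10 h all 4 libraries lay between 107 and 113 RPKM.

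Occludin is a membrane protein that lies along the claudin strands. Ocln had 8.83 and 9.62 RPKM in control and 6.24 and 6.70 RPKM in p38-MAPKi at 7 h, without overlap (-0.51 ± 0.20, adjusted p = 0.142). Its fewest reads, 296, were in the shallow library of this group. At 4 h it had 7.26 and 9.13 RPKM in control and 8.67 and 6.45 RPKM in p38-MAPKi. At 10 h it had 10.4 and 9.51 RPKM in control and 10.9 and 10.2 RPKM in p38-MAPKi. In both cases the groups overlapped (-0.12 ± 0.23 and 0.085 ± 0.094).

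F11r encodes JAM-A, an immunoglobulin-like adhesion molecule of the tight junction. At 7 h it had 107 and 90.4 RPKM in control and 83.5 and 73.2 RPKM in p38-MAPKi, and at 10 h 109 and 101 RPKM in control and 95.0 and 99.6 RPKM in p38-MAPKi. It was lower without overlap at both times, but neither difference passed (-0.33 ± 0.18, adjusted p = 0.252, and -0.11 ± 0.068, adjusted p = 0.407). At 4 h its values, 80.8 and 92.2 RPKM in control and 88.9 and 94.8 RPKM in p38-MAPKi, overlapped (0.088 ± 0.20).

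Of the adherens junction genes, Cdh1 had 174 and 171 RPKM in control and 132 and 128 RPKM in p38-MAPKi at 7 h. The pairs were tight and far apart, yet the difference of -0.41 ± 0.17 did not pass in the fit of these 4 libraries (adjusted p = 0.151). In a single fit to all 12 libraries it did (adjusted p = 0.0386), as did 21.7% of all genes. At 4 h Cdh1 had 156 and 169 RPKM in control and 166 and 134 RPKM in p38-MAPKi, and at 10 h 202 and 197 RPKM in control and 197 and 198 RPKM in p38-MAPKi. The differences were -0.13 ± 0.20 and -0.016 ± 0.058.

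Ctnnb1, which also serves as the nuclear effector of Wnt signalling, varied little over the 12 libraries. Its highest value was 1.40 times its lowest, as was that of Cldn4, and this ratio reached 2.80 for Tjp1. At 7 h it had 107 and 118 RPKM in control and 89.98 and 107 RPKM in p38-MAPKi, which overlapped (-0.19 ± 0.18, adjusted p = 0.501). At 4 h it had 100.5 and 104 RPKM in control and 108 and 84.2 RPKM in p38-MAPKi, and at 10 h 107 and 115 RPKM in control and 108 and 106 RPKM in p38-MAPKi. The differences at these times were -0.098 ± 0.20 and -0.049 ± 0.065.

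At 4 h limma called none of the 9 genes, against 0.909% of 10781 tested genes, and voom called none, against 0.315%. In limma a gene's own scatter did not count at this time, as its spread was set to that of the trend. An unadjusted p under 0.05 was reached by 1 of the 9, Tjp1, against 9.42% of all genes. The median of the 9 was -0.098, and that of all genes was 0.075. Without overlap, Cgn lay below its controls (13.7% of all genes did) and Cldn6 and Cldn7 lay above (26.8% of all). At 10 h limma and voom called none of the 9, against 0.803% of 10959 genes in limma and 4.76% in voom. No junction gene had an unadjusted p under 0.05 in limma, against 19.8% of all genes. The differences at that time ran from -0.13 for Cldn7 to 0.085 for Ocln, with SEs of 0.058 to 0.097 and a median of -0.040 against -0.023 for all genes. F11r and Cldn6 lay below both controls (29.6% of all genes did) and none above (22.6%). For Cldn6 this was a near tie, with 112.811 RPKM in the higher p38-MAPKi library and 112.824 RPKM in the lower control.

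With time as a term and all 12 libraries, the p38-MAPKi effect common to the 3 time points was not called for any junction gene, against 2.67% of 11590 genes, and 2 of the 9, against 25% of all, had an unadjusted p under 0.05. These were Cgn (-0.45 ± 0.14, adjusted p = 0.0940) and Tjp1 (-0.60 ± 0.20, adjusted p = 0.111). Voom called none. Without replicate 1 of p38-MAPKi at 4 h, Tjp1 was called, with 5.1% of all genes.

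In control blastocysts alone, the 9 transcripts were all higher at 10 h than at 4 h, by 0.12 for Ctnnb1 to 0.33 for Cgn on the log2 scale, with a median of 0.28 against 0.14 for all tested genes. None passed the test in limma, against 0.471% of 10825 genes, and voom called none of them, against 4.41% of all genes. An unadjusted p under 0.05 was reached by 7 of the 9, against 15.2% of all. With the trend on transcript length removed, the differences ran from -0.048 for Ctnnb1 to 0.16 for Cgn. The lowest unadjusted p of the 9 in that limma fit was 0.0911, for F11r, while 1820 of the 10825 genes had one under 0.05. Without control replicate 2 of 4 h, F11r, Cldn4, Cdh1, and Cldn6 passed, in a fit that called 1228 of all genes (11.5%). Between 4 h and 7 h, and between 7 h and 10 h, limma and voom again called none. Limma called 0.492% and 0.0552% of all genes, and voom 0.0835% and 0.0828%. In limma, 2 of the 9 (Cgn and Cldn6, both higher at 7 h) and 0 of the 9 had an unadjusted p under 0.05, against 4.79% and 3.79% of all. For 7 h against 4 h a gene's own scatter did not count in limma, and Cldn6 had 151 and 104 RPKM in the controls of 7 h.

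At 4 h and 7 h the p38-MAPKi effect of a gene went with the length of its transcript over the whole table, and the 2 called junction genes are the longest of the 9. The median log2 difference of all tested genes at 7 h was 0.53 for transcripts under 1000 bases and -0.51 for those of 8000 bases or more. Among the 1323 genes of 6000 to 8000 bases, the class of Tjp1 and Cgn, the median was -0.37, 58.7% had both p38-MAPKi libraries below both controls, and 34 genes (2.57%) were called lower. Tjp1 and Cgn stood low within that class too. Only 2.04% of its genes lay lower than Tjp1 and 6.80% lower than Cgn. Ctnnb1, of 5192 bases, lay near the middle of its own class, with 58.6% of 1091 genes lower, and Cldn7 did too, with 58.8% of 1522 genes lower. The other short claudins lay in the lower part of their class of 1000 to 2000 bases, with 21.7% of genes lower than Cldn4 and 15.0% lower than Cldn6. F11r also lay low in its class, with 20.4% of 1783 genes lower. In the class of Ocln and Cdh1, 24.6% and 33.0% of 1390 genes were lower.

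**Figure D2:**
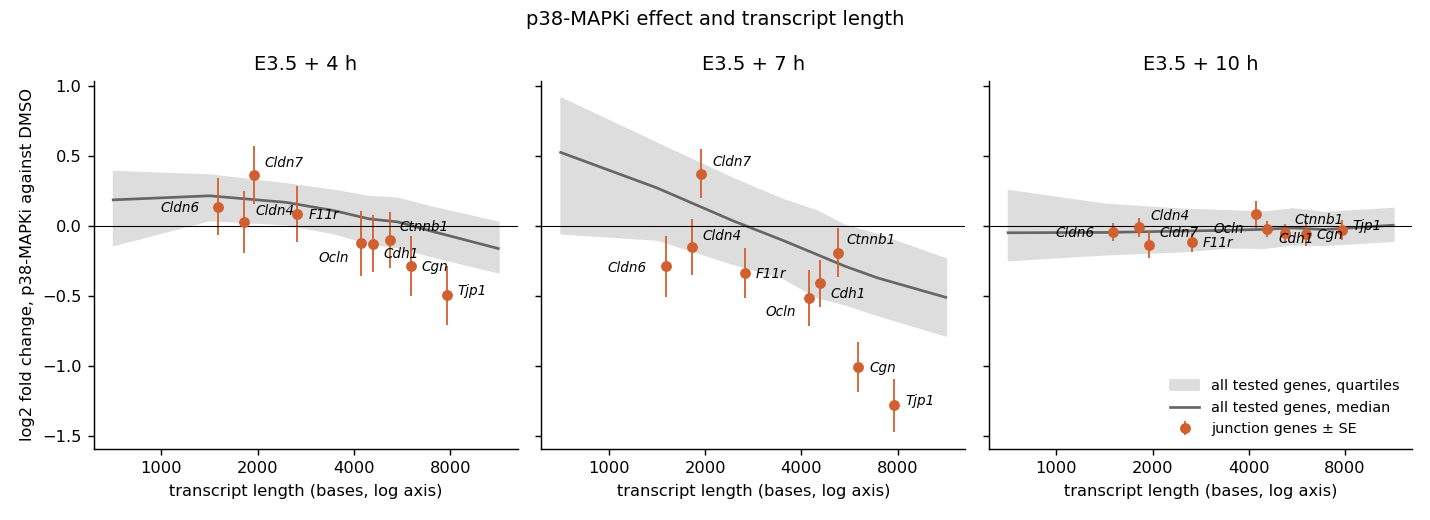
Log2 fold change of p38-MAPKi against control (vertical axis) by transcript length in bases (log axis) at the 3 time points, with the junction genes as points ± SE and all tested genes as their median (line) and quartiles (band) in 8 length classes. At 7 h the line falls from 0.53 to -0.51, and Cgn (-1.002) and Tjp1 (-1.28) lie under the band at their length, while Ctnnb1 (-0.19) and Cldn7 (0.38) lie inside it.

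The length dependence differed between libraries. At 4 h it was carried by p38-MAPKi replicate 2, whose class medians against the mean of its controls ran from 0.40 for the shortest to -0.34 for the longest class, while those of replicate 1 stayed between 0.029 and 0.12. Tjp1 followed the same split, at -1.06 in replicate 2 and 0.078 in replicate 1, as did Cgn, at -0.49 and -0.072. At 7 h both p38-MAPKi libraries showed the trend, from 0.67 to -0.60 in replicate 1 and from 0.45 to -0.41 in replicate 2. The control libraries of that time also differed by length, replicate 2 against replicate 1, from -0.36 for the shortest to 0.21 for the longest class. At 10 h the class medians of both p38-MAPKi libraries stayed between -0.072 and 0.037.

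**Figure D3:**
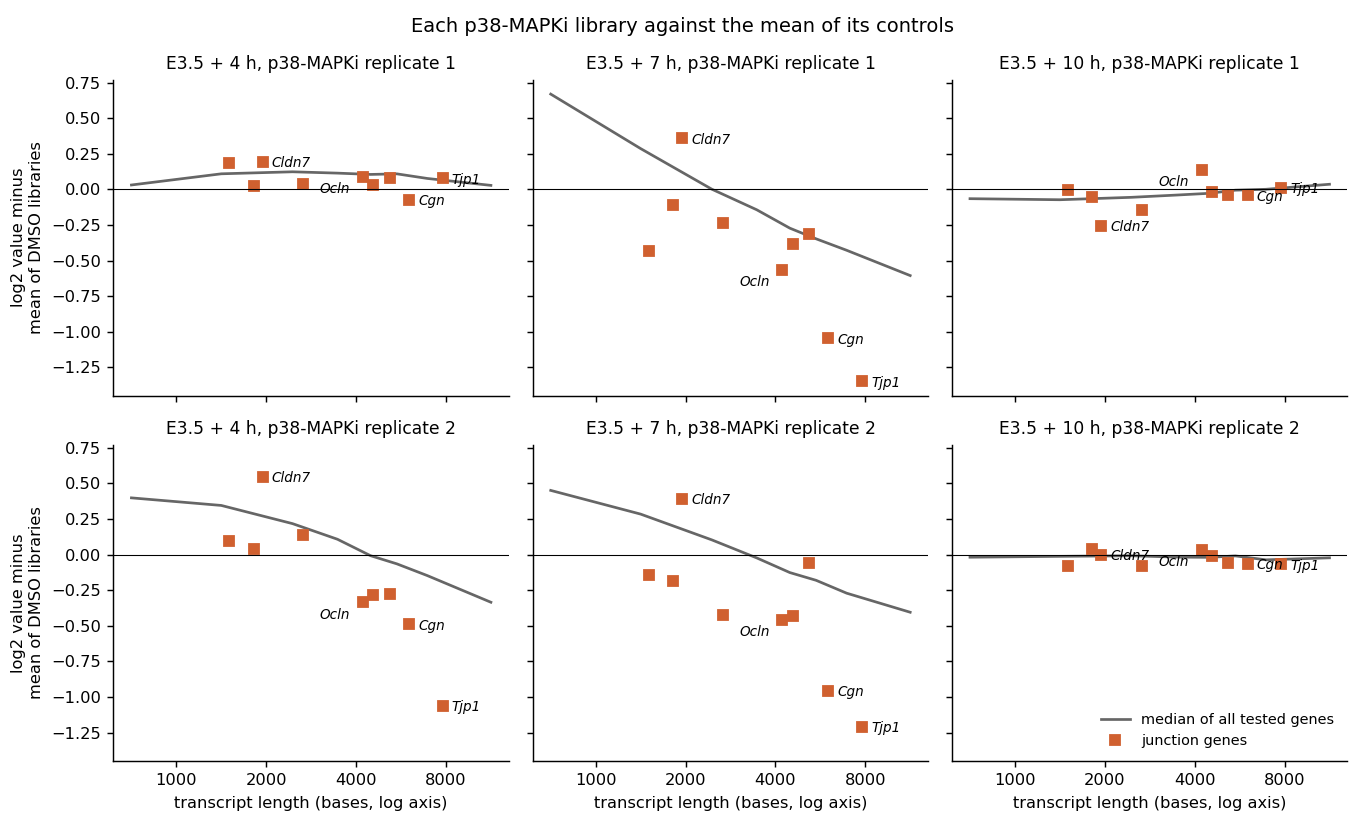
Log2 value of each p38-MAPKi library minus the mean of the 2 control libraries of its time (vertical axis) by transcript length in bases (log axis), for the junction genes (squares) and as the median of all tested genes in 8 length classes (line). Tjp1 is near -1 or lower in the 3 libraries whose line slopes down (-1.06, -1.35, and -1.21) and near 0 in the other 3 (0.078, 0.014, and -0.069).

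To set the junction genes against other genes of their length, the trend of each library on length was removed before the fit. At 7 h the trend had a value of -0.39 at the length of Tjp1 and -0.31 at that of Cgn. The differences that were left were -0.88 ± 0.15 for Tjp1 (adjusted p = 0.103) and -0.70 ± 0.15 for Cgn (adjusted p = 0.107). Neither was called in that fit, in which no gene of the table was called and 2460 had an unadjusted p under 0.05. With the trend removed and the replicate number as a block, both were called (adjusted p = 0.00991 and 0.0219), in a fit that called 11.3% of all genes. The other junction genes moved to either side: Cldn6 from -0.29 to -0.48 (adjusted p = 0.161), Cldn4 from -0.15 to -0.28, Cdh1 from -0.41 to -0.20, Ctnnb1 from -0.19 to 0.064, and Cldn7 from 0.38 to 0.27. F11r, whose length lies where the trend crosses 0, kept its value of -0.33.

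**Figure D4:**
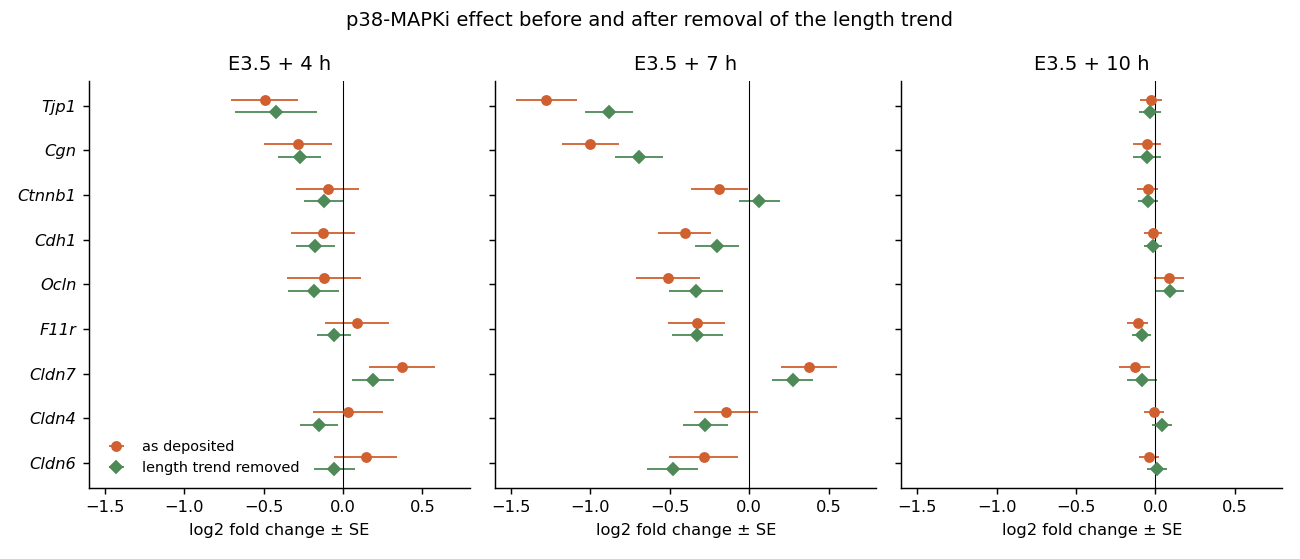
Log2 fold change ± SE of each junction gene, p38-MAPKi against control, with the values as deposited (circles) and after the length trend of each library was removed (diamonds), ordered from the longest transcript to the shortest. At 7 h Tjp1 goes from -1.28 to -0.88 and Cgn from -1.002 to -0.70, both still the lowest of the 9, and at 10 h the pairs of points lie together near 0.

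The other genes of the junctions were read from lists by role. Of 15 further plaque genes of the tight junction read here, 13 were tested. Of these 1 fell at 7 h, against 1.2% of all genes called lower. It was Cgnl1, which encodes the cingulin relative paracingulin. It had 6.20 and 7.08 RPKM in control and 2.45 and 3.08 RPKM in p38-MAPKi (-1.27 ± 0.25, adjusted p = 0.0473). Its transcript has 7844 bases. The call was lost in 6 of the 16 alternatives that tested it: without the variance trend, with medians or quantiles made equal, with the length trend removed, and without either control library. Of the 13, 12 lay lower and 1 higher, with a median of -0.47. At 4 h and 10 h none of the 13 was called (medians -0.091 and -0.060).

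Of 21 other claudins, 20 were in the table and 3 were tested. Cldn3, a sealing claudin, rose at 4 h from 8.78 and 9.18 RPKM in control to 20.2 and 17.4 RPKM in p38-MAPKi (1.06 ± 0.22, adjusted p = 0.000464), where 0.909% of all genes were called. In that fit a gene's own scatter did not count. The difference kept its sign in 17 alternatives (0.76 to 1.17), but 8 of them lost the call: no variance trend, equal medians, equal quantiles, no filter, a single fit to 12 libraries, the length trend removed, voom, and control replicate 1 left out. At 7 h Cldn3 had 11.2 and 8.47 RPKM in control and 25.1 and 16.5 RPKM in p38-MAPKi, which did not pass (1.06 ± 0.25, adjusted p = 0.0538). Its effect common to the 3 times was called (0.90, adjusted p = 0.0240), as was that of 2.67% of all genes. Of 7 other transmembrane genes of the tight junction, 5 were tested and none was called at a single time (medians 0.0094, -0.12, and -0.029 at 4, 7, and 10 h, the last over 4 genes). Among them Cxadr, an adhesion molecule that also serves as a virus receptor, had a common effect that was called (-0.42, adjusted p = 0.0420), a call lost in 13 of 24 alternatives, against 7 for Cldn3.

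Of 18 other adherens junction genes, 14 were tested and none was called at a single time, with medians of 0.090, -0.36, and 0.052 at 4, 7, and 10 h. Nectin4, a nectin adhesion molecule expressed at 1.499 RPKM in the controls, had a common effect that was called (0.98, adjusted p = 0.0196), as had 2.67% of all genes. For the desmosomes, the junctions that anchor keratin filaments, 8 of 11 genes were tested and none was called at a single time (medians 0.020, -0.67, and 0.065), and Perp, a desmosomal membrane protein, had a common effect that was called (0.36, adjusted p = 0.0358), though not in 13 of 24 alternatives. For the gap junctions, the channels between neighbouring cells, 4 of the 7 genes read here were tested, none was called, and the medians were 0.12, -0.0013, and 0.068. Of these 4, the 2 most abundant, Gja1 and Gjb5, differed at 7 h by -0.42 ± 0.17 and 0.43 ± 0.31.

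**Figure D5:**
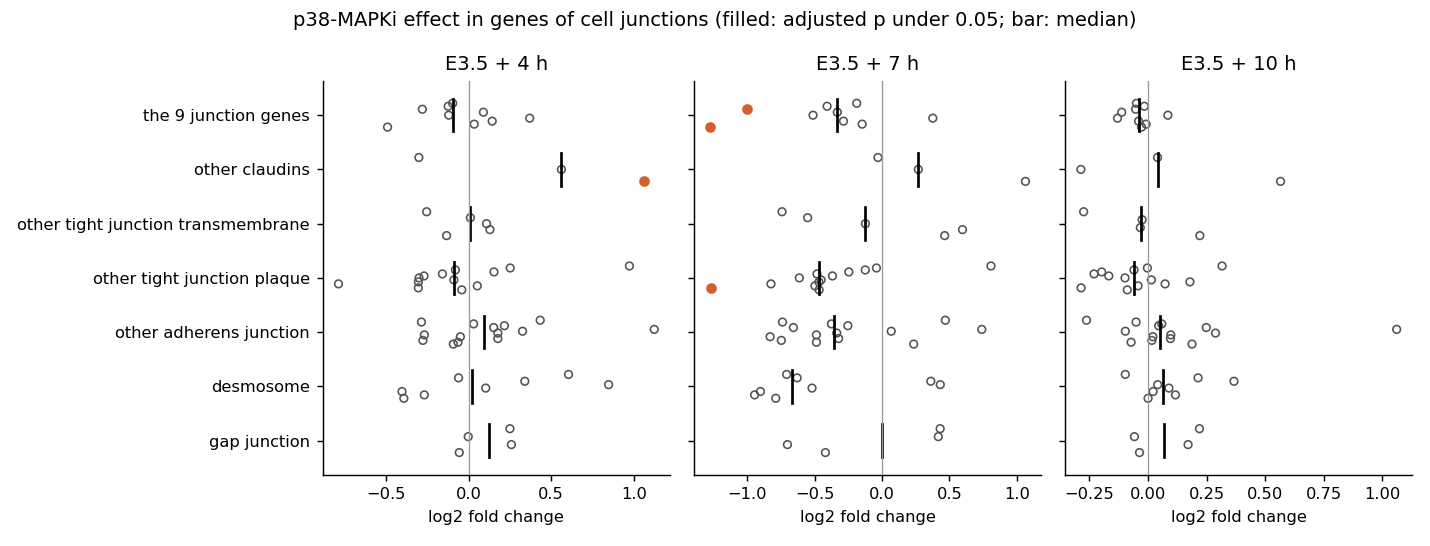
Log2 fold change of p38-MAPKi against control (horizontal axis, with its own range at each time) of every tested gene of the 7 junction lists as read here, with filled points for genes called in limma and a bar at the median of each list. At 7 h the filled points are Tjp1, Cgn, and Cgnl1, and the only one at 4 h is Cldn3 at 1.06.

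Markers of the cell types of the blastocyst were read from lists too, and the median of all tested genes at 7 h was -0.14. Of the 14 tested trophectoderm markers, 12 lay lower in p38-MAPKi at 7 h with none called (median -0.43), and their summed level was 2262 to 2425 RPKM in p38-MAPKi and 2049 to 2766 RPKM in control. Most of that sum came from Krt8 and Krt18, the 2 markers that lay higher (0.084 and 0.16), and without them it was 473 to 503 RPKM in p38-MAPKi and 604 to 796 RPKM in control. Id2, a transcriptional regulator of the outer cells, fell at 4 h by 0.86 on the log2 scale (adjusted p = 0.00485), where 0.909% of all genes were called. As for Cldn3, a gene's own scatter did not count in that fit. The call of Id2 at 4 h was lost in 8 of 17 alternatives. These were the ones named for Cldn3, except voom, and the one without control replicate 2. The effects common to the 3 times were called for Id2 (-0.84), Cdx2 (-0.38), Gata3 (-0.51), and Fgfr2 (-0.56), against 2.67% of 11590 genes. Among 24 alternatives, 1 lost the call for Id2, 1 for Gata3, 11 for Cdx2, and 11 for Fgfr2. Of the 8 tested primitive endoderm markers of 10, all lay lower at 7 h. The endocytic adaptor Dab2 (-1.003) and the endocytic receptor Lrp2 (-1.46) were called, against 2.13% of all genes. These 2 calls were lost in 6 and 4 of 17 alternatives. The 2 transcripts have 7342 and 16701 bases. With the length trend removed, their differences were -0.63 and -0.84 and were not called. The summed level of the markers was 163 to 173 RPKM in p38-MAPKi and 272 to 306 RPKM in control. Gata6, Lrp2, and Dab2 made up most of each sum. Lrp2 had 74.7 and 90.96 RPKM in control and 27.6 and 32.5 RPKM in p38-MAPKi. Dab2 had 57.5 and 47.3 RPKM in control and 23.96 and 28.3 RPKM in p38-MAPKi. Gata6 differed by -0.47 and was not called. Neither were Gata4 (-0.65) and Sox17 (-0.20), which lay between 1.07 and 3.72 RPKM at 7 h. Foxa2 had at most 1 read in a library. Of the 10 epiblast markers, all tested, 9 lay lower at that time and none was called (median -0.31). Nanog differed by -0.088 and Pou5f1, the only one that lay higher, by 0.18. The sums were 756 to 798 RPKM in p38-MAPKi and 753 to 793 RPKM in control. Most of each sum came from Pou5f1, with 503 and 487 RPKM in p38-MAPKi and 412 and 463 RPKM in control. The part of these marker differences in the values of Tjp1 and Cgn was not tested.

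The mean profile of the 9 genes, each centred over the 12 libraries, was lowest in replicate 1 of p38-MAPKi at 7 h (-0.31), in replicate 2 of p38-MAPKi at 4 h (-0.25), and in replicate 2 of p38-MAPKi at 7 h (-0.24), and highest in the control libraries of 10 h and replicate 1 of 7 h (0.17 to 0.20). Cdh1 was closest to this mean, with a root mean square difference of 0.081 on the log2 scale, and Tjp1 (0.38) and Cldn7 (0.33) were farthest. Among 5795 genes above the median level, those with the smallest difference from it were Calu, which encodes an endoplasmic reticulum calcium-binding protein (0.053), Ctnna1, which encodes α-catenin (0.057), Mtpn (0.058), Gnai3 (0.058), and Ythdf2 (0.060).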

How the data were processed

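Polyadenylated RNA of 12 pools of blastocysts had been sequenced by the authors from directional libraries. According to the labels and methods, reads were trimmed (Trim Galore 0.4.1), mapped to GRCm38 (HISAT2 2.0.5), and counted per gene in SeqMonk, and the authors deposited log2 RPKM for each replicate. The strand option and the handling of multiply mapped reads are not given in the sources used here. Where no read was counted, the table gives what 0.9 of a read would give. The depth of each library was computed from this, and whole reads (tolerance 0.02) were recovered for 34244 genes. This used GENCODE M21 lengths (the merged exons of a gene or its longest transcript) or, as for Cldn6, lengths found by trying. These reads entered only voom and the statements on depth.

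Comparisons used the deposited log2 values without a pseudocount in limma 3.58.1 (lmFit, eBayes with trend; R 4.3.3). A gene entered when 2 or more libraries of the comparison reached 1 RPKM, p-values were adjusted over all such genes by the Benjamini-Hochberg method, and those under 0.05 were called. For p38-MAPKi against control at 4 h, and for control at 7 h against 4 h, limma set the spread of each gene to that of the trend. In these 2 comparisons a gene's own scatter did not count. In the other comparisons the p-values measure the spread between pools, which may be technical. An exact permutation test of 2 against 2 libraries cannot go below 0.333. Length trends were fitted by loess with span 0.5 and degree 1. Tables and plots were made in Python 3.11.15 with pandas 2.3.3, numpy 2.4.6, and matplotlib 3.10.9, and the fits were tested on simulated data.

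The 9 genes and all lists were chosen with earlier results of these data known. Every one of the 9 is named, with the genes of each other list that were called in a p38-MAPKi comparison or, failing that, its 2 most abundant tested genes, and the 5 genes most like the mean of the 9. Gata6, Gata4, Sox17, and Foxa2 are named as well. Of these lists, 2 genes are not reported here, and the counts and medians leave them out. Promoter sequences are those of RefSeq. The alternatives changed the variance prior (no trend), the scaling (medians or quantiles made equal), the filter (none, or 10 RPKM), the pseudocount (0.1, 1, or 5 RPKM), the samples (a single fit to 12 libraries, or 1 library left out), the threshold (0.1), and the test (voom), or added a replicate block, removal of the length trend, or both.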

Additional observations from a re-analysis of the deposited data

How the results depend on the processing

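The count of junction genes called at 7 h, 2 as reported, was 0 with limma without the trend, with median centring, with quantile normalization, and with the length trend removed. Over all 10940 tested genes these settings called 0, 0, 12, and 0. Leaving out 1 library gave 0 to 2 at 7 h, 0 to 1 at 4 h and for the common effect, 0 to 3 and 0 to 2 for the differences of the effect between 7 h and 10 h and between 4 h and 10 h, and 0 to 4 for control at 10 h against 4 h, where 0 was reported for each but the count at 7 h. The differences between times rose to 2 without control replicate 1 of 7 h and 3 without p38-MAPKi replicate 2 of 7 h (7 h against 10 h), and to 2 without p38-MAPKi replicate 1 of 4 h (4 h against 10 h). The difference between 7 h and 10 h had 2 genes called with at least 10 RPKM, at a threshold of 0.1, and with voom, against 9.97%, 10.3%, and 7.83% of all genes. The common effect had 1 gene called at a threshold of 0.1, against 8.12% of all. The cause was not tested. Leaving out 1 library of a group leaves its partner to be judged by the spread of the other libraries.

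Neither the labels nor the methods say what same-numbered libraries share, and the number was not taken as a pairing. The correlation of their deviations was 0.0065, 0.17, and 0.12 at 4, 7, and 10 h across 10720 genes. The replicate block gave 2 junction genes at 7 h and 0 in every other comparison, as reported. Over all genes it moved the calls from 233 to 2023 at 7 h and from 88 to 410 at 10 h.

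Of 457 alternative values of single genes, 36 changed sign, none of them called on either side. At 4 h Cldn4 was -0.20 with quantile normalization and -0.15 with the length trend removed, Cldn6 -0.015 and -0.054, and F11r -0.085 and -0.058. At 7 h Cldn4 was 0.048 and Ctnnb1 0.0077 with median centring, and Ctnnb1 0.064 with the length trend removed. At 10 h quantile normalization gave 0.025 for Tjp1, 0.051 for Cldn4, 0.035 for Cldn6, 0.077 for Cdh1, and 0.025 for Ctnnb1, and removal of the length trend 0.040 for Cldn4 and 0.0097 for Cldn6. With a replicate block as well, the values without the length trend were identical. Leaving out 1 library gave, at 4 h, -1.06 to 0.078 for Tjp1, -0.012 to 0.077 for Cldn4, -0.34 to 0.091 for Ocln, -0.0070 to 0.18 for F11r, -0.28 to 0.032 for Cdh1, and -0.28 to 0.084 for Ctnnb1. At 7 h it gave -0.30 to 0.0078 for Cldn4. At 10 h it gave -0.069 to 0.014 for Tjp1, -0.051 to 0.036 for Cldn4, -0.16 to 0.051 for Cgn, -0.035 to 0.0038 for Cdh1, and -0.10 to 0.0063 for Ctnnb1. Median centring moved the median of all genes at 7 h from -0.14 to 0.054, and the differences of the 9 genes with it. Depth limited Ocln most, with 296 reads in 1 library.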
